A study of Mus musculus with 12 samples.

Results

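The transcriptomes of AtT-20 cells expressing Pax3 were compared with those of AtT-20 cells expressing the Pax7 Q+GL+ isoform. The 4 libraries of these 2 genotypes, 2 Pax3 and 2 Q+GL+, were taken by their labels out of 12 libraries in the series. Genes at 1 FPKM or more in at least 2 of the 4 libraries were kept, which left 12023 of 16385 genes. AtT-20 derives from a mouse pituitary tumor and models corticotropes. The markers Pomc and Tbx19 were present in all 4 libraries, and 10 of 13 listed corticotrope markers were kept by this filter. Per the methods, Pax7 constructs were delivered by retroviral vectors with a CMV promoter and Flag tags at both ends, and cells were pools selected with Geneticin, not clones. The study put Pax3 into AtT-20 cells at a level like that of Pax7. The methods name no vector or tags for it. In the labels Q and GL stand for residues of the DNA-binding paired domain that alternative splicing of Pax7 includes (+) or omits (–). The other libraries are of Q–GL+, Q–GL–, Pax7-465 (a Pax7 that ends at residue 465) and NoTag cells, whose labelled genotype is Pax7 and whose title names no tag. All were of total RNA depleted of ribosomal RNA. FPKM, fragments scaled to transcript length and to mapped reads, do not state the read depth, and the counting error behind each value was not estimated.

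Pax3 and Pax7 are closely related transcription factors that bind DNA through a paired domain and a homeodomain. Both act in skeletal muscle progenitors and the neural crest and neural tube, and Pax7 also specifies the melanotropes of the pituitary intermediate lobe, where it opens chromatin as a pioneer factor together with Tpit, the product of Tbx19. Pax3 resembles the Q+GL– form of Pax7 in the paired domain and lacks its extended C-terminus, and it is not a factor of the pituitary. The comparison asks how far these related factors, placed in the same cell, give different transcriptomes.

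The targeted gene was checked first. Pax7 was at 0.159 and 0.161 FPKM in Pax3 cells, against 99.9 and 102 FPKM in Q+GL+ cells, so the groups did not overlap and matched their labels for Pax7. The Pax3 gene itself was not analysed here, so its level in Pax3 cells was not checked. The libraries were otherwise close. Pearson's r across genes was 0.989 between the Pax3 libraries, 0.992 between the Q+GL+ libraries and 0.984 to 0.988 between a library of each. The median absolute log2 difference was 0.151 within Pax3, 0.0983 within Q+GL+ and 0.110 to 0.152 across groups. By this measure, though not by r, the Pax3 libraries differed from each other as much as from Q+GL+ libraries. Pax3 replicate 1 had the lowest median level of the 4, at 3.70 on the log2(FPKM + 1) scale, against 3.76 to 3.78 in the other 3. The small nuclear RNA Rn7sk took 8.92% and 9.27% of summed FPKM in Pax3 and 7.13% and 6.93% in Q+GL+ cells; its part in the results was not tested.

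Besides Pax7, 33 genes passed the test, 11 higher and 22 lower in Pax3 cells. With Pax7 this was 34 of 12023 genes, or 0.283% (limma, adjusted p under 0.05), 0.0915% higher and 0.191% lower, and 3 of them (0.0250%), Pax7 and AI662270 included, changed by at least 1 on the log2 scale. Unadjusted, 1239 genes (10.3%) had a p under 0.05, 444 higher (3.69%) and 795 lower (6.61%). The differences were small, with log2 fold changes of Pax3 over Q+GL+ of 0.53 or more (median 0.67) for the 11 and of −0.39 to −1.23 (median −0.54) for the 22. All 33 genes had both Pax3 libraries on the same side of both Q+GL+ libraries, as had 13.7% (above) and 21.6% (below) of all tested genes. The 95% interval of the fold change lay within −1 and 1 for 98.6% of genes and within −0.5 and 0.5 for 84.2%. The split of calls depended on scaling, with 31 higher and 29 lower after median centring and 76 higher and 61 lower after quantile normalization, and all 34 genes kept their sign. Most calls were lost when 1 library was left out. A group of 1 library widens the error, so such a loss alone does not show whether 1 library carried the call. All 34 genes kept their sign there too. Over all settings the estimate ran from 0.52 to 0.59 for Eln, from −0.75 to −0.69 for Serpine2 and from −1.70 to −0.98 for AI662270. The study describes the replicates as biological, without stating whether those of a group came from separately infected cells. The p-values measure only the spread of libraries within the 6 groups of the fit, all 12 libraries included, as moderated by limma.

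**Figure D1:**
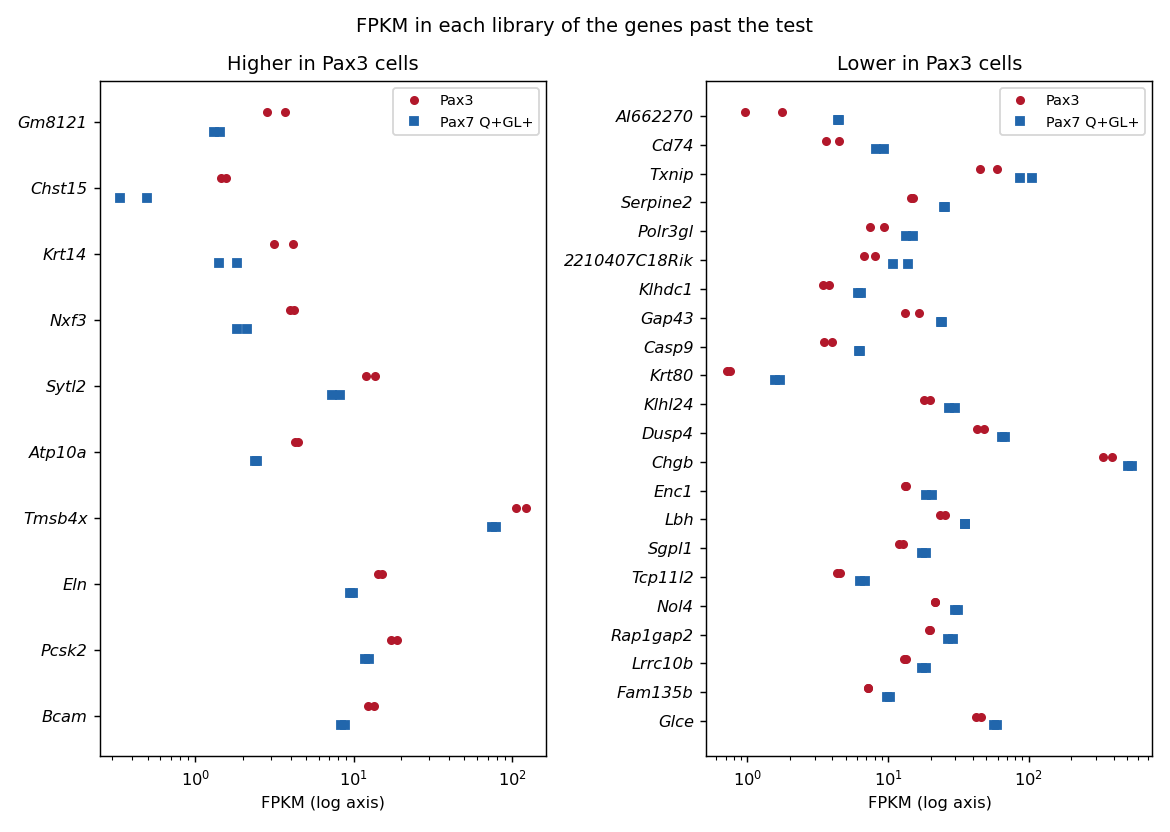
FPKM (log axis) of 32 of the 33 genes other than Pax7 that passed the test, in the 2 Pax3 libraries (circles) and the 2 Q+GL+ libraries (squares), with 10 genes higher in Pax3 on the left and the 22 lower on the right. The groups do not overlap for any of them, and Chgb is the most abundant.

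**Figure D2:**
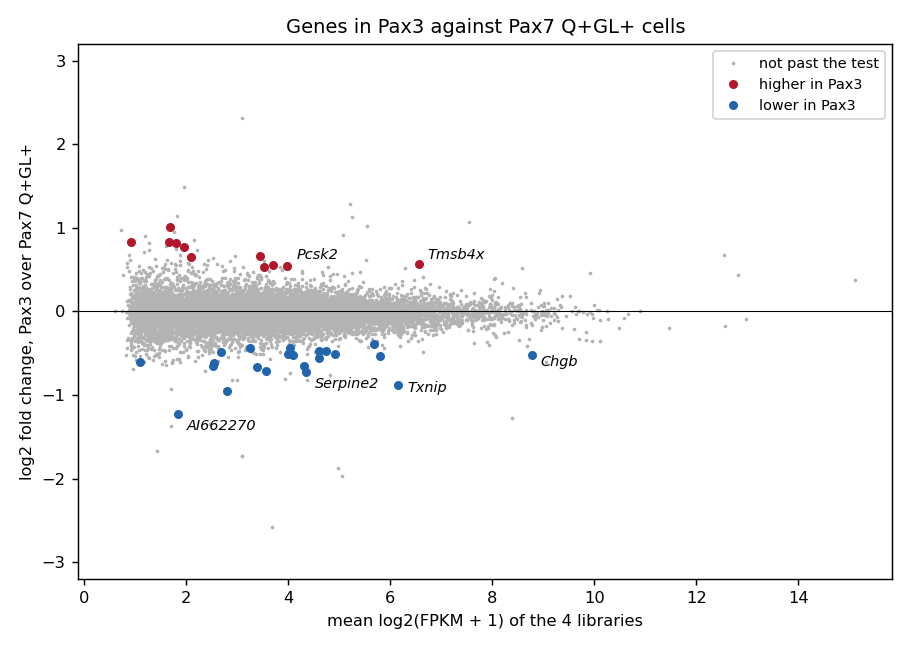
Log2 fold change of Pax3 over Q+GL+ against the mean log2(FPKM + 1) of the 4 libraries for the tested genes, with genes past the test in red (higher in Pax3) and blue (lower). Pax7 and 7 genes for small RNAs lie beyond the vertical axis, and most genes lie close to 0.

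Chst15, a chondroitin sulfotransferase of the Golgi, was low in both groups, at 1.46 and 1.56 FPKM in Pax3 and 0.336 and 0.494 FPKM in Q+GL+ cells. Its log2 fold change was 0.83 (standard error, SE 0.13, adjusted p = 0.023), and Fgfr2, which overlaps it on the same strand, was at 0.33 (SE 0.12, adjusted p = 0.34). Also higher were Nxf3, of a family of nuclear RNA export factors, at 3.96 and 4.21 FPKM in Pax3 against 1.83 and 2.13 FPKM in Q+GL+ cells, and Atp10a, a phospholipid flippase, at 4.46 and 4.28 against 2.38 and 2.45 FPKM. Their log2 fold changes were 0.77 and 0.65. The calls of Chst15, Nxf3 and Atp10a were lost whichever of the 4 libraries was left out.

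Eln, which encodes elastin, was at 15 and 14.3 FPKM in Pax3 and 9.44 and 9.92 FPKM in Q+GL+ cells (log2 fold change 0.55, adjusted p = 0.027). Bcam, a laminin receptor, was at 12.4 and 13.4 against 8.35 and 8.78 FPKM (0.53), and Tmsb4x, which encodes the actin-binding thymosin beta 4, at 106 and 122 against 74.2 and 78.7 FPKM (0.57). Krt14, a keratin of basal epithelia, was at 3.14 and 4.16 against 1.84 and 1.41 FPKM (0.82). Gm8121, a processed pseudogene whose reads may belong to its parent gene, was at 3.66 and 2.84 against 1.44 and 1.31 FPKM (0.83). Without Pax3 replicate 1 only Tmsb4x of these remained past the test, and without any other of the 4 libraries none did.

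Pcsk2, which encodes prohormone convertase 2, the enzyme that turns the Pomc product toward the melanotrope hormone alpha-MSH, was higher in Pax3 cells. It was at 17.2 and 18.9 FPKM in Pax3, against 11.7 and 12.5 FPKM in Q+GL+ cells (log2 fold change 0.54, SE 0.07, adjusted p = 0.021). The call was lost without Pax3 replicate 2, without either Q+GL+ library and with only the 4 libraries fitted (adjusted p up to 0.14), with values of 0.47 to 0.60 over all settings. Pcsk2os1, an antisense gene at its 5′ end, had a fold change of −0.01 (SE 0.27). Sytl2, a synaptotagmin-like protein that tethers granules through Rab27, was at 13.7 and 11.9 FPKM in Pax3 and 7.26 and 8.17 FPKM in Q+GL+ cells (0.67, SE 0.09, adjusted p = 0.020). Of the secretory genes, Chgb, encoding the granule protein chromogranin B, fell, at 339 and 391 FPKM in Pax3 against 506 and 543 FPKM in Q+GL+ cells (−0.53, SE 0.09, adjusted p = 0.043). Sytl2 and Chgb passed the test without Pax3 replicate 2 and lost it without any of the other 3 libraries. Chgb alone of the pair was also lost without the trend, without the robust option, with no filter, with only the 4 libraries, without NoTag and with the replicate block (largest adjusted p over all settings 0.34).

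The promoters of genes past the test were searched for letters that paired domains and homeodomains bind, since both factors share these domains. RefSeq promoters (GRCm38.p6, 250 bases before to 50 after the start) were matched for 19 of the 33 genes. The motifs, sought on both strands, were TAAT, GTCAC, and TAAT followed by its complement ATTA after 2 or 3 bases, which contain the first. Neither of these repeats was found in the 19, and they occur in 0.390% (2 bases) and 0.487% (3 bases) of 32851 promoters of the table, and in 0.122% and 0.166% of the 9041 matched promoters of tested genes. TAAT was in 2 of 6 promoters of higher and 4 of 13 of lower genes, against 40.4% of tested genes and 58.0% of the table. GTCAC was in 4 of 6 and 5 of 13, against 46.5% of tested genes and 45.6% of the table. Shown are 4 promoters that hold a motif and lie near the start given in the files, with TAAT, GTCAC or their complements in capitals, from Pcsk2 (chr2:143545883-143546182, plus strand), Chst15 (chr7:132317179-132317478, minus), Tmsb4x (chrX:167209169-167209468, minus) and Glce (chr9:62122560-62122859, minus).
Pcsk2: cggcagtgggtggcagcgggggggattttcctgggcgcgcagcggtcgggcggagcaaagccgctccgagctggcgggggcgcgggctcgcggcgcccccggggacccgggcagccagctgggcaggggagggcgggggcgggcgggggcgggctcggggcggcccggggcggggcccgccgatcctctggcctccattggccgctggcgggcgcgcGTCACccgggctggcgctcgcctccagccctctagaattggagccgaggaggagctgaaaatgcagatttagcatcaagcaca
Chst15: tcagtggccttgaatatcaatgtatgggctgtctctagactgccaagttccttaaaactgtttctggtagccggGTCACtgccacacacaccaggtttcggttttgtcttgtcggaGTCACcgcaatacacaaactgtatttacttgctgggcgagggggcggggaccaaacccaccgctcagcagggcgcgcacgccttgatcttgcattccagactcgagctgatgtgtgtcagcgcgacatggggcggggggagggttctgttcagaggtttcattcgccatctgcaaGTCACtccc
Tmsb4x: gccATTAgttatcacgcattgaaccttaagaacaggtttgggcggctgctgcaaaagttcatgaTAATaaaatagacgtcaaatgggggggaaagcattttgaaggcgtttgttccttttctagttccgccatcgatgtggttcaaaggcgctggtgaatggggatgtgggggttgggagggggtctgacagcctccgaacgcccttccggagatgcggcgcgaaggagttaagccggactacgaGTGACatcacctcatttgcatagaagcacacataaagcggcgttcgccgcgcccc
Glce: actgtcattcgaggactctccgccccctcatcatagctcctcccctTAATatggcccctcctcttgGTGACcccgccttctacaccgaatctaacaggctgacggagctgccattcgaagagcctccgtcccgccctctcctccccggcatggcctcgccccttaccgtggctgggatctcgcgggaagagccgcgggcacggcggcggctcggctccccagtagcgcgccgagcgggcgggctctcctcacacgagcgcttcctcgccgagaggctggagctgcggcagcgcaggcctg

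Among the genes lower in Pax3 cells, Serpine2, which encodes the protease inhibitor nexin-1, had the smallest adjusted p after Pax7. It was at 15 and 14.6 FPKM in Pax3, against 24.8 and 25.2 FPKM in Q+GL+ cells (log2 fold change −0.72, SE 0.08, adjusted p = 0.0037), a call lost only without Q+GL+ replicate 2 (adjusted p = 0.062). Cd74, the MHC class II invariant chain, was at 3.64 and 4.45 FPKM against 8.13 and 9.38 FPKM (−0.95, SE 0.14, adjusted p = 0.021). AI662270, a noncoding transcript, was at 1.77 and 0.955 against 4.42 and 4.49 FPKM, which at −1.23 was the largest fall after Pax7. Its Pax3 libraries differed more from each other than its Q+GL+ libraries, and the call was lost whichever library was left out. In the other 14 members of the MHC list none passed the test, and 0 were lower at an unadjusted p under 0.05 (6.61% of all tested genes).

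Txnip, an inhibitor of thioredoxin and of glucose uptake, was at 44.7 and 59.0 FPKM in Pax3 and 86.7 and 105 FPKM in Q+GL+ cells (−0.88, SE 0.13, adjusted p = 0.023). Its neighbour on chromosome 3, Polr3gl, a subunit of RNA polymerase III, was at 7.4 and 9.27 against 13.3 and 15.1 FPKM (−0.71, SE 0.11, adjusted p = 0.023). The genes run from 96557957 to 96561883 (plus strand) and from 96577872 to 96594181 (minus strand) of GRCm38 and do not overlap. Cd74, Txnip and Polr3gl passed the test without Pax3 replicate 2 and not without any of the other 3 libraries.

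Dusp4, a phosphatase that inactivates MAP kinases, was at 42.7 and 48.1 FPKM in Pax3 against 64.0 and 67.7 FPKM in Q+GL+ cells (−0.53), and Rap1gap2, a GTPase-activating protein of Rap1, at 19.6 and 19.9 against 26.8 and 28.7 FPKM (−0.47). Gap43, the growth cone protein, was at 13.3 and 16.6 against 24.2 and 23.6 FPKM (−0.65), and Enc1, an actin-binding kelch protein, at 13.1 and 13.4 against 18.4 and 20.4 FPKM (−0.52). Among enzymes, Casp9, the initiator caspase of the mitochondrial pathway, was at 3.48 and 4.01 against 6.25 and 6.30 FPKM (−0.62). Sgpl1, which cleaves sphingosine phosphate, was at 12 and 12.7 against 17.3 and 18.7 FPKM (−0.51), and Glce, an epimerase of heparan sulfate synthesis, at 42.2 and 45.6 against 56.8 and 59.1 FPKM (−0.39). The remaining genes were Lbh, Klhl24, Klhdc1, Krt80, Nol4, Lrrc10b, Fam135b, Tcp11l2 and 2210407C18Rik, with log2 fold changes of −0.43 (Fam135b) to −0.66 (2210407C18Rik). Of these, Dusp4 and Gap43 passed without Pax3 replicate 2 and 2210407C18Rik without Q+GL+ replicate 1, and no other passed with a library left out.

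Rap1gap2 lay just inside the threshold, with an adjusted p of 0.049. Ifrd1, at 91.6 and 93.8 FPKM in Pax3 and 65.1 and 63.8 FPKM in Q+GL+ cells (adjusted p = 0.051), lay just outside.

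The genes that separated Pax3 from Q+GL+ cells stood at various levels in the other Pax7 forms. Among the 5 groups other than NoTag, Q+GL+ had the lowest mean for 10 of the 11 genes higher in Pax3, and Pax3 the highest for 7. Of the 22 lower genes, Q+GL+ had the highest mean for 11 and Pax3 the lowest for 15. The genes were picked by the difference between Pax3 and Q+GL+, so these ranks are no test. Serpine2 was at 14.1 and 14.9 FPKM in Q–GL+ cells and 40.3 and 45.9 FPKM in Q–GL– cells, and Pax3 differed from these by log2 fold changes of 0.03 (adjusted p = 0.95) and −1.48 (adjusted p = 3.9e-07). Chst15 was at 3.33 and 3.01 FPKM in NoTag cells, above its Pax3 level. Chgb was at 382 and 352 FPKM in Q–GL+ and 694 and 759 FPKM in Q–GL– cells. Pcsk2 was at 16.2 and 15.4 FPKM in Q–GL+, 35.8 and 36.6 FPKM in Q–GL– and 20.8 and 22 FPKM in Pax7-465 cells, so Pax3 cells lay between Q–GL+ and Pax7-465 cells, and only their difference from Q–GL– (−0.97, adjusted p = 1.1e-05) passed the test among these 3. Over all genes of the same fit, Pax3 differed from Q–GL+ at 85 genes (0.707%), from Pax7-465 at 138 (1.15%) and from Q–GL– at 504 (4.19%), while Q+GL+ differed from Q–GL– at 252 (2.10%). These comparisons share libraries and are given side by side, and whether the counts differ was not tested.

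**Figure D3:**
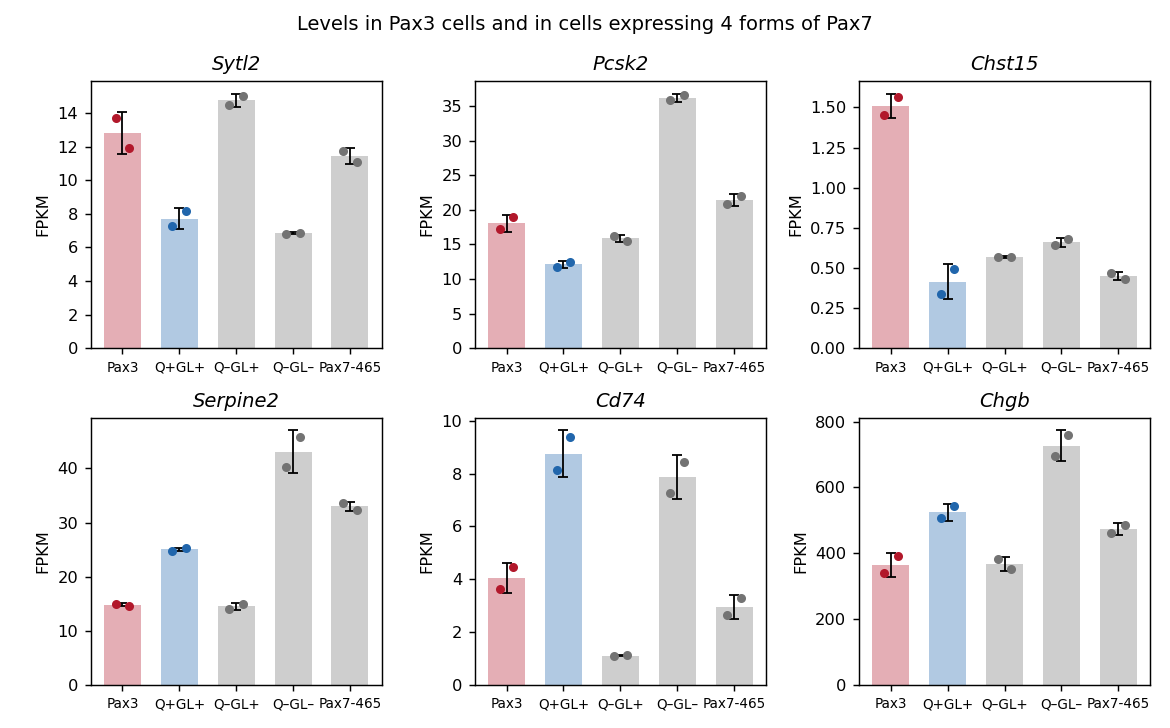
FPKM of 6 genes past the test in Pax3, Q+GL+, Q–GL+, Q–GL– and Pax7-465 cells. Bars are means, error bars SD and points the 2 libraries of each group. Serpine2 overlaps between Pax3 and Q–GL+ cells, and Chst15 is highest in Pax3 cells among these 5 groups.

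The markers of the corticotrope showed no gene past the test. Of 13 listed, 12 were in the table and 10 were tested, and those in the table but untested reached at most 0.39 FPKM. Of the 10 tested, limma called 0. An unadjusted p under 0.05 was reached by 2, of which 1 was higher and 1 lower, beside 10.3% of all tested genes. Tbx19, encoding the T-box factor Tpit that activates Pomc, was at 119 and 134 FPKM in Pax3 and 121 and 133 FPKM in Q+GL+ cells (log2 fold change −0.01, 95% interval −0.19 to 0.18). Pomc, the hormone precursor of both pituitary cell types, was at 5112 and 6422 FPKM in Pax3 and 6146 and 6756 FPKM in Q+GL+ cells, overlapping between the groups (−0.17, interval −0.45 to 0.11). Pcsk1, prohormone convertase 1, had an estimate of −0.31 (SE 0.09, adjusted p = 0.24). Lmcd1, the 1 higher, is counted in this list, as is the untested Pde2a. The study gives both as genes that Pax7 activates and not as corticotrope markers. Lmcd1 was at 5.59 and 6.43 against 4.85 and 4.97 FPKM (0.24, SE 0.10, adjusted p = 0.42). Of other pituitary lineages 6 of 14 markers were in the table and 2 tested, and of muscle, melanocyte, endothelial, blood, fibroblast and glial markers 9 of 18 and 2, with none past the test. In bulk RNA, fewer cells of a type and less RNA per cell cannot be told apart.

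Of 11 melanotrope markers tested, 2 were higher, Pcsk2 and Eln, 0 were lower and 9 did not pass, with a list median of −0.16 against −0.02 for all tested genes. The list median was −0.0049 with Pax3 replicate 1 left out (0.028 for all tested genes) and −0.20 with Pax3 replicate 2 left out (−0.075). It was −0.19 with Q+GL+ replicate 1 left out (−0.043) and −0.10 with Q+GL+ replicate 2 left out (−0.0042). The list was chosen with earlier results of these data known, so its share of low p beside that of all genes tests nothing. Unadjusted, 9 reached a p under 0.05, 4 of them higher and 5 lower, beside 10.3% of all tested genes. The additional higher ones were Mest, an imprinted hydrolase gene, at 97.7 and 100.4 FPKM in Pax3 and 75.3 and 77.5 FPKM in Q+GL+ cells (adjusted p = 0.083), and Megf11. Kit, a receptor tyrosine kinase, was at 3.22 and 3.30 against 4.28 and 5.18 FPKM (adjusted p = 0.13), and Timp2, an inhibitor of matrix metalloproteases, at 25.9 and 27.2 against 29.2 and 30.3 FPKM (adjusted p = 0.47).

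The target genes that Pax3 and Pax7 are known for in muscle and neural crest were few here. Of 27 listed, 12 were in the table, 7 were tested and 0 passed in limma. At an unadjusted p under 0.05 there was 1, beside 10.3% of all tested genes. Hes1, a transcriptional repressor of the Notch pathway, was at 6.76 and 8.99 FPKM in Pax3 against 5.28 and 6.35 FPKM in Q+GL+ cells (0.37, SE 0.16, adjusted p = 0.44).

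Secretion and matrix lists had single calls. One of 14 prohormone processing genes was higher (Pcsk2), and of 20 granule genes 1 was higher (Sytl2) and 1 lower (Chgb). Chga, encoding chromogranin A, was at 1010.2 and 1144 FPKM in Pax3 and 1127 and 1176 FPKM in Q+GL+ cells (adjusted p = 0.78). Syt7, a calcium sensor of exocytosis, missed the test at 35.6 and 36.4 against 46.7 and 45.5 FPKM (−0.35, adjusted p = 0.054). Of 26 matrix genes 1 was higher (Eln) and 1 lower (Serpine2), with 6 and 8 at an unadjusted p under 0.05. Over all tested genes 3.69% were higher and 6.61% lower at that p. Hmcn2, encoding hemicentin 2, was at 6.22 and 5.10 against 3.53 and 3.17 FPKM (0.61, adjusted p = 0.054). Of 19 genes of receptor tyrosine kinase and FGF signalling 1 was lower, Dusp4. Of 17 SNARE and exocytosis genes 0 passed in limma (1 at an unadjusted p under 0.05, beside 10.3% of all tested genes).

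Glycolysis and hypoxia genes and interferon-stimulated genes had the lowest and highest medians among lists with 6 or more tested genes, and none of either list passed the test. Of 26 glycolysis and hypoxia genes, 24 had negative estimates and 10 were lower at an unadjusted p under 0.05, with a median of −0.20. Over all 12023 genes, 6906 estimates were negative and 6.61% of genes were lower at that p. Ldha, lactate dehydrogenase A, was at 743 and 887 FPKM in Pax3 and 981 and 1089 FPKM in Q+GL+ cells (−0.35, adjusted p = 0.23). The list median was −0.07 with Pax3 replicate 1 left out, −0.30 with Pax3 replicate 2 left out, and −0.27 and −0.11 with Q+GL+ replicates 1 and 2 left out, so its size varied with single libraries. Of 21 interferon-response genes 15 had positive estimates and 7 were higher at an unadjusted p under 0.05 (3.69% of all genes), with a median of 0.14. That median was 0.23 and 0.13 with Pax3 replicates 1 and 2 left out, and 0.15 and 0.16 with Q+GL+ replicates 1 and 2 left out. The medians of all tested genes in these settings were, in that order, 0.028, −0.075, −0.043 and −0.0042. Isg15, a ubiquitin-like protein induced by interferon, was at 11.5 and 11.9 against 8.23 and 8.49 FPKM (0.44, adjusted p = 0.17). In all, 7 of the 30 lists held a gene past the test, Pax7 itself included.

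**Figure D4:**
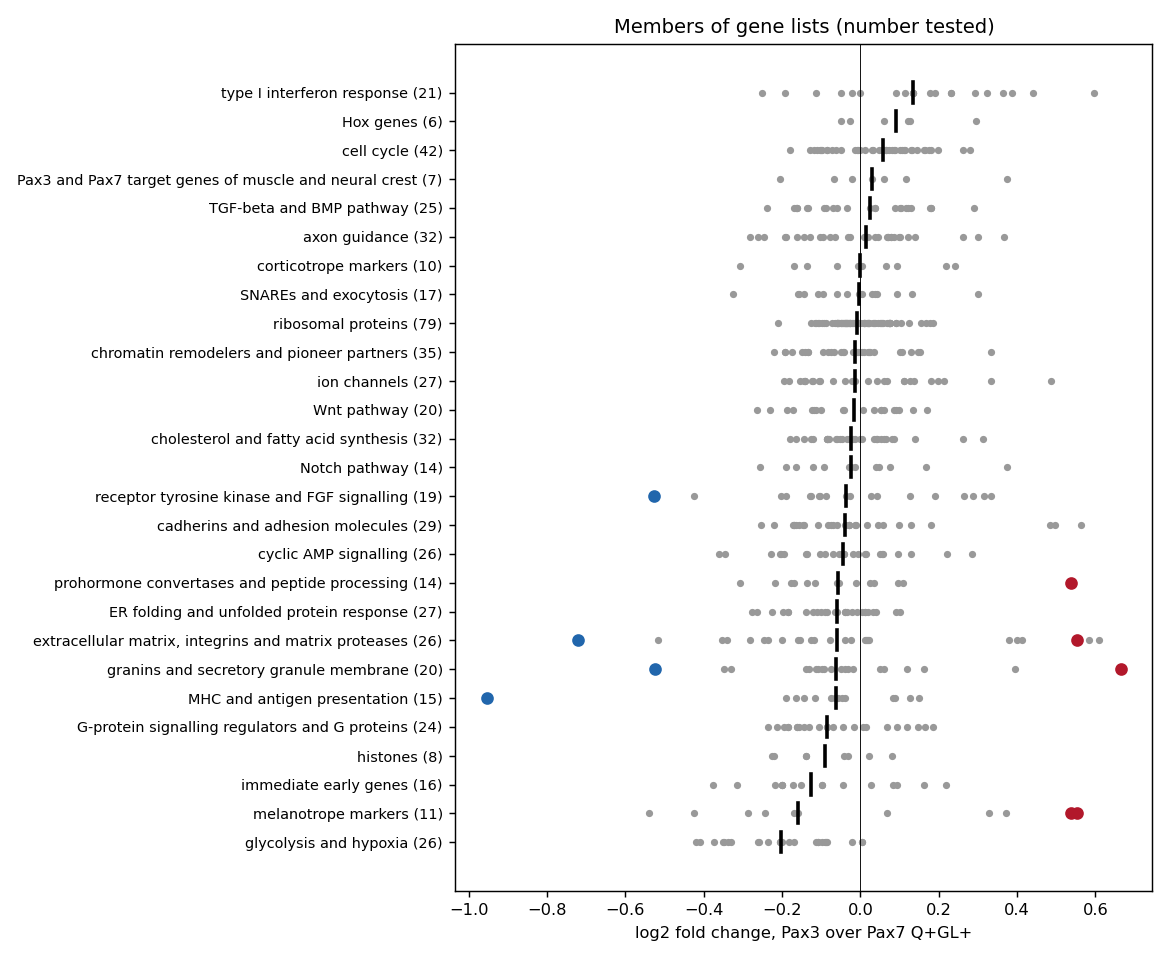
Log2 fold change of Pax3 over Q+GL+ for the tested members of each list with 6 or more tested genes, their number in brackets. Grey points did not pass the test, red and blue points passed it (higher and lower in Pax3), and black bars are list medians, which run from −0.20 (glycolysis and hypoxia) to 0.14 (type I interferon response).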

How the data were processed

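Total RNA of AtT-20 cells was depleted of ribosomal RNA and sequenced as strand-specific pairs. Per the labels and methods, the authors trimmed reads with Trimmomatic, aligned them to GRCm38 (mm10) with TopHat2 and quantified genes with HOMER, and the values deposited by the authors are FPKM per gene. The study tested counts. FPKM are not counts, and whole reads were not recovered from them here. Instead, limma 3.58.1 (R 4.3.3, trend and robust options, Benjamini-Hochberg adjusted p under 0.05) was fitted on log2(FPKM + 1). This scale understates the change of low genes. All 12 libraries entered with 1 coefficient for each of 6 groups, NoTag included, whose values stand apart. Genes at 1 FPKM in at least 2 of the 4 libraries compared were tested. Some genes are not reported here. In the table, 4 value columns matched no sample and were not used. Gene types came from GENCODE, and promoters from RefSeq. Named were Pax7, Tbx19, Pomc, Pcsk2, Lmcd1 and every other gene past the test reported here. To these came the 3 members of each list with the smallest p, and further members named after their values were seen. The members and lists were chosen with earlier results of these data known, so their shares beside those of all tested genes are no test. Alternatives were the scaling, the filter, the pseudocount, the fit's options, its samples, a replicate block and each library left out. Plots were drawn with matplotlib 3.10.9 in Python.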

Additional observations from a re-analysis of the deposited data

How the results depend on the processing

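All 34 genes kept their direction in every setting in which they were tested, whereas the number past the test did not hold. Quantile normalization gave 137 (76 higher, 61 lower), median centring 60 (31 higher), and other fits 17 higher and 13 lower without the trend, 16 without the robust option (8 lower), 20 with no filter (10 lower), 22 with only the 4 libraries (13 lower) and 17 without the NoTag libraries (7 higher, 10 lower). Of the 34, 34 remained after quantile normalization, 33 after median centring and 16 without the robust option. Called genes changed by 1 or more on the log2 scale were 3, against 1 with a filter of 5 FPKM, 7 with a pseudocount of 0.1 and 8 with only the 4 libraries. Leaving out 1 library gave 1 to 13 genes, 0 to 4 higher and 1 to 11 lower, and 1 to 6 changed by 1 or more. With a replicate block 24 genes passed, 13 of them lower. Whether the replicate numbers pair the samples was not settled. Deviations of same-numbered Pax3 and Q+GL+ libraries correlated at r = 0.14, and those among all 6 groups at −0.18 to 0.25. That r leaves out a shift common to all genes. Between Pax3 and Q+GL+ libraries of the same number the median absolute log2 difference was 0.116 and 0.110. Between those of unlike numbers it was 0.152 and 0.129. The replicate block with only the 4 libraries, chosen after seeing the data, gave 526 genes (210 higher, 316 lower, 10 changed by 1 or more). Tbx19, at −0.01, turned to 0.018 with quantile normalization and 0.023 with median centring. With 1 library left out, the estimate of Tbx19 ran from −0.090 to 0.079, Gata2 from −0.068 to 0.29, Psmb8 from −0.38 to 0.0042, Hist1h2al from −0.31 to 0.035, Sox2 from −0.13 to 8e-04, Mitf from −0.21 to 0.076 and Hoxa6 from −0.013 to 0.27, none past the test. The cause of these changes was not tested. With 2 libraries a group and no read depth, precision is limited; the smallest difference called was that of Glce (−0.39).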

Other observations

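Estimates of at least 1 in size on the log2 scale were found for 26 genes, of which 3 passed the test. Of the other 23, 21 were genes for small RNAs of at most 191 bases. The other two, chosen here after their values were seen, were C920009B18Rik and Gm12696. C920009B18Rik was at 21.3 and 15.5 FPKM in Pax3 cells, against 2.73 and 2.98 FPKM in Q+GL+ cells (log2 fold change 2.31, SE 0.92, adjusted p = 0.47 from limma). Gm12696 was at 4.14 and 4.38 FPKM in Pax3 cells and at 0.0643 and 4.30 FPKM in Q+GL+ cells, so 1 Q+GL+ library set its estimate.

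Lrrc10b, which passed the test, lies on chromosome 19 between 10455371 and 10457447, next to Syt7, which ends at 10453180 on the other strand and did not pass. Lrrc10b was at 12.9 and 13.3 FPKM in Pax3 cells, against 17.5 and 18.7 FPKM in Q+GL+ cells (log2 fold change −0.44), and the fold change of Syt7 was −0.35.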
